A study of Mus musculus with 28 samples.

Results

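Neurotrophins are secreted growth factors that act on neurons and also on endocrine cells, and 6 genes of this system were followed in whole pituitary: Bdnf (brain-derived neurotrophic factor), Ntf3 (neurotrophin-3), Ntrk2 and Ntrk3 (the receptor tyrosine kinases TrkB and TrkC), Ngfr (the p75 neurotrophin receptor) and Sort1 (sortilin). These 6 were chosen by name, as 6 rows of the 32594 genes in the count table, and all 6 passed the filter on low counts in every fit. Pituitary RNA came from 28 C57BL/6J mice that were 8 weeks old at the start of the study, 16 females and 12 males. Home cage controls (4 females, 4 males) had neither treatment. Restraint mice (4 females, 2 males) were held in a restrainer for 20 min and killed 10 min later. PSD mice (4 females, 3 males) underwent 12 h of paradoxical sleep deprivation, in which mice sit on small platforms above water and wake when muscle tone is lost at the onset of REM sleep, and were killed 18 h after it ended. PSD + restraint mice (4 females, 3 males) had the sleep deprivation and then the restraint. There were thus 8 groups. Every mouse, controls included, had been accustomed to the platform tank on earlier days. Each library was made from 1 whole pituitary, a gland of anterior, intermediate and neural lobes whose content differed between samples.

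Neurotrophins are made as precursors that furin-type proteases cleave. Mature BDNF binds TrkB and neurotrophin-3 binds TrkC, which switch on the Ras-MAP kinase, PI3 kinase and phospholipase C pathways, whereas the uncleaved precursors bind p75 together with sortilin. Bdnf transcription starts from several alternative promoters and follows neuronal activity and cAMP in the brain. In the pituitary, BDNF and TrkB have been found in hormone-producing cells and p75 in glial cells and nerve fibres of the neural lobe.

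In the GRCm38 annotation, Bdnf lies at chr2:109674700-109727007 on the plus strand with 11 annotated transcripts, Ntf3 at chr6:126101412-126166910 on the minus strand, Ntrk2 at chr13:58806569-59133970 (plus), Ntrk3 at chr7:78175959-78738012 (minus), Ngfr at chr11:95568818-95587735 (minus) with 1 transcript, and Sort1 at chr3:108284082-108361511 (plus). Bdnf, Ntrk2, Ntrk3 and Sort1 overlap annotated antisense or intronic transcripts, and whether the counting used strand is not given in the sources used here, so reads of those transcripts cannot be told apart from the genes' own. Because several promoters feed the Bdnf count, the promoter windows of the members were read from RefSeq (GRCm38.p6, 250 bases before to 50 after each start). Windows were found for 4 of the 6 members. Of the 7 Bdnf windows, 1 held the core of the cAMP response element (TGACGT on either strand, which is also part of the full 8-letter element TGACGTCA), and none held the full element. The core occurred in 7.51% of the 32851 windows of all genes and the full element in 1.79%. The window with the core is printed here because it is the one member window that holds it. The core, in capitals, begins at position -36 from the start of its transcript. The only Ngfr window is printed beside it, since Ngfr was the other member called after PSD + restraint, and it held neither the core nor the glucocorticoid half-site AGAACA. That half-site was in 3 of the 7 Bdnf windows and in 19.0% of all windows. The counts sum over all transcripts of a gene, so which promoter was used was not measured.
Bdnf, chr2:109692186-109692485, plus strand: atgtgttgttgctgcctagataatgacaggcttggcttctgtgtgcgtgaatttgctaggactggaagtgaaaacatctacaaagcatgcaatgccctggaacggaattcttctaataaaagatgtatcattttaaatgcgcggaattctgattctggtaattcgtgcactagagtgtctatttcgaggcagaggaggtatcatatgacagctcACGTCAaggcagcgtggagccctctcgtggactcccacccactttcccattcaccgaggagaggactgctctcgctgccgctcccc
Ngfr, chr11:95587649-95587948, minus strand: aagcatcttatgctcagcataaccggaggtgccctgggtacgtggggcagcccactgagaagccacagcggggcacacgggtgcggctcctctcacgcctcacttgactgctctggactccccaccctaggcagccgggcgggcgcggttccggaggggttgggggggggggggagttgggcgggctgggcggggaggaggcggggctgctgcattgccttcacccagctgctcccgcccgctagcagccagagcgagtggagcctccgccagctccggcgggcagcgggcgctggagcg

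The libraries held 14024465 to 52948531 counts. The 12 marker genes of anterior lobe hormone cells were all detected, and Gh, Prl and Pomc together took 24.8% to 34.3% of the counts. In bulk RNA, fewer cells of a type and less RNA per cell cannot be told apart. Content of the intermediate and neural lobes differed between glands. It was followed as a score, the mean z of 7 marker genes (Pax7, Pcsk2, Oacyl, Rax, Col25a1, Nkx2-1 and Lhx2). Male control mouse 1 stood apart with a score of -3.92, while the other 27 mice lay between -0.67 and 1.13. Its neural lobe markers summed to 3.69 CPM (counts scaled to a fixed library total) against 33.6 to 77.3 CPM in the others. The 17 comparisons that include males were refitted without this mouse. For the members other than Ngfr, none of the 85 log2 fold changes then moved by more than 0.0649, and 1 call changed (Ntrk2 in controls). The Ngfr values moved by up to 0.37 with no call changed, and those that moved are given with and without it where they are described.

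Levels were compared between genes as TPM (reads per transcript length, scaled to a fixed total per library). Ntrk2 was the most abundant member at 51.6 ± 9.02 TPM (SD, n = 28), followed by Ntrk3 at 30.3 ± 9.12 and Sort1 at 20.6 ± 2.42 TPM. Bdnf was present at 5.42 ± 1.94 TPM, Ngfr at 1.80 ± 0.81 TPM and Ntf3 at 0.48 ± 0.14 TPM. This order of all 6 held in 22 mice. In 5 others Sort1 lay above Ntrk3, so these neighbours overlapped, and in 1 mouse Ntf3 lay above Ngfr. The Trk receptors and sortilin thus lay well above the ligands Bdnf and Ntf3 in level, and Ngfr lay below Bdnf. Among the relatives, Sorl1 (a sortilin-family receptor) ranged from 36.2 to 60.4 TPM and Sorcs2 (another) 16.3 ± 2.71 TPM, while Ntf5 (neurotrophin-4, a further TrkB ligand) stood at 2.59 ± 0.61 TPM.

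**Figure D1:**
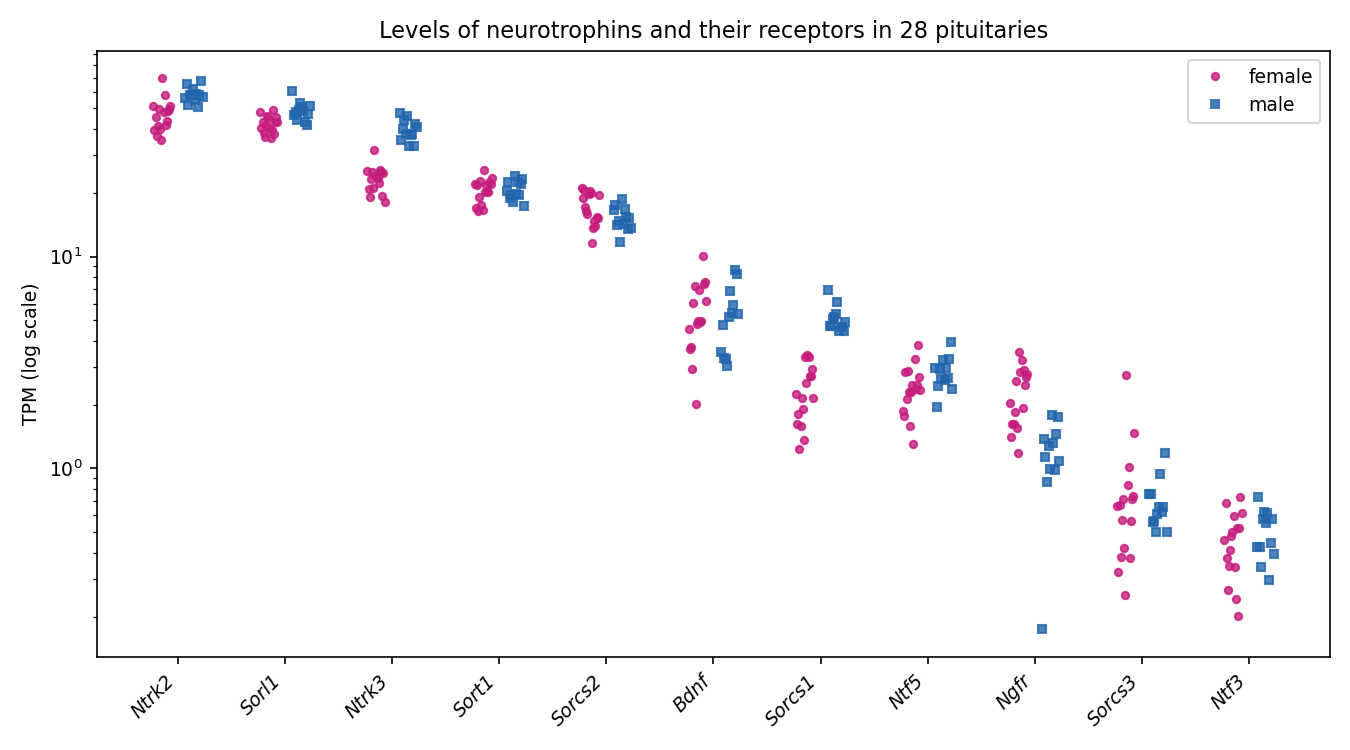
Level of 11 neurotrophins and receptors in each mouse, as TPM on a log axis, with females as circles and males as squares. Ntrk2, Sorl1, Ntrk3, Sort1 and Sorcs2 lie above 10 TPM in all 28 mice, and the ligand Ntf3 below 1 TPM.

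Bdnf encodes the ligand of TrkB and was the member with the most calls in the treatment comparisons. Values here are CPM with TMM factors. In females, the controls had 13.1, 11.5, 11.1 and 9.75 CPM and the PSD + restraint mice 31.5, 22.1, 22.9 and 17.9 CPM. In males, the controls had 9.89, 12.6, 10.1 and 9.58 CPM and the PSD + restraint mice 25.3, 23.3 and 16.4 CPM. In both sexes every PSD + restraint mouse lay above every control. The share of all genes whose groups separate in this way was not counted, here or below. In females Bdnf rose by 1.05 ± 0.26 (log2 fold change ± SE, edgeR quasi-likelihood test, adjusted p = 0.0452). The male rise was 1.05 ± 0.17 (adjusted p = 0.00686), so that both came to 2.08-fold. It rose by 1.05 ± 0.17 with all mice fitted together (edgeR, adjusted p = 0.000155, 95% interval 0.72 to 1.39). The 95% intervals here and below are approximate. They were taken from the normal distribution, so they are narrower than those of the quasi-likelihood test. A gene counted as called where its adjusted p over all genes did not exceed 0.05 and its log2 fold change reached 0.322 in either direction. By this rule 2.2% of the genes tested were called in females, 2.56% in males and 5.46% in all mice, and Bdnf was the only member called in each sex. The response differed between the sexes by -0.01 ± 0.35 (edgeR, adjusted p = 0.999), with a 95% interval of -0.70 to 0.68.

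Restraint alone and PSD alone lay between these groups. After PSD alone Bdnf was 13.4, 21.6, 14.1 and 15.9 CPM in females and 19.8, 14.7 and 17.2 CPM in males. All 7 PSD mice were above every control of their sex, but the difference was not called, with log2 fold changes of 0.52 ± 0.27 in females (edgeR, adjusted p = 0.289), 0.71 ± 0.17 in males (adjusted p = 0.229) and 0.60 ± 0.17 in all mice (adjusted p = 0.0807). With the lobe score as a covariate the female value was 0.10 (adjusted p = 0.8998), and the male and all-mice values were 0.66 and 0.49. The share of genes called was 0.0277% in females, 0.00547% in males and 0.671% in all mice. By edgeR, 19.8%, 8.85% and 17.6% of genes had an unadjusted p below 0.05. After restraint alone the females had 18.2, 21.0, 6.49 and 15.3 CPM and the males 9.19 and 14.02 CPM. Female mouse 3 was the lowest of all 28 mice, and the other 3 females lay above every control. The log2 fold changes were 0.43 ± 0.26 in females (edgeR, adjusted p = 0.657), 0.15 ± 0.20 in males (adjusted p = 0.9998) and 0.34 ± 0.18 in all mice (adjusted p = 0.542), against 0.543%, 0.296% and 1.14% of genes called. Without female restraint mouse 3 the female value was 0.68, and without male restraint mouse 3 the male value was -0.19.

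**Figure D2:**
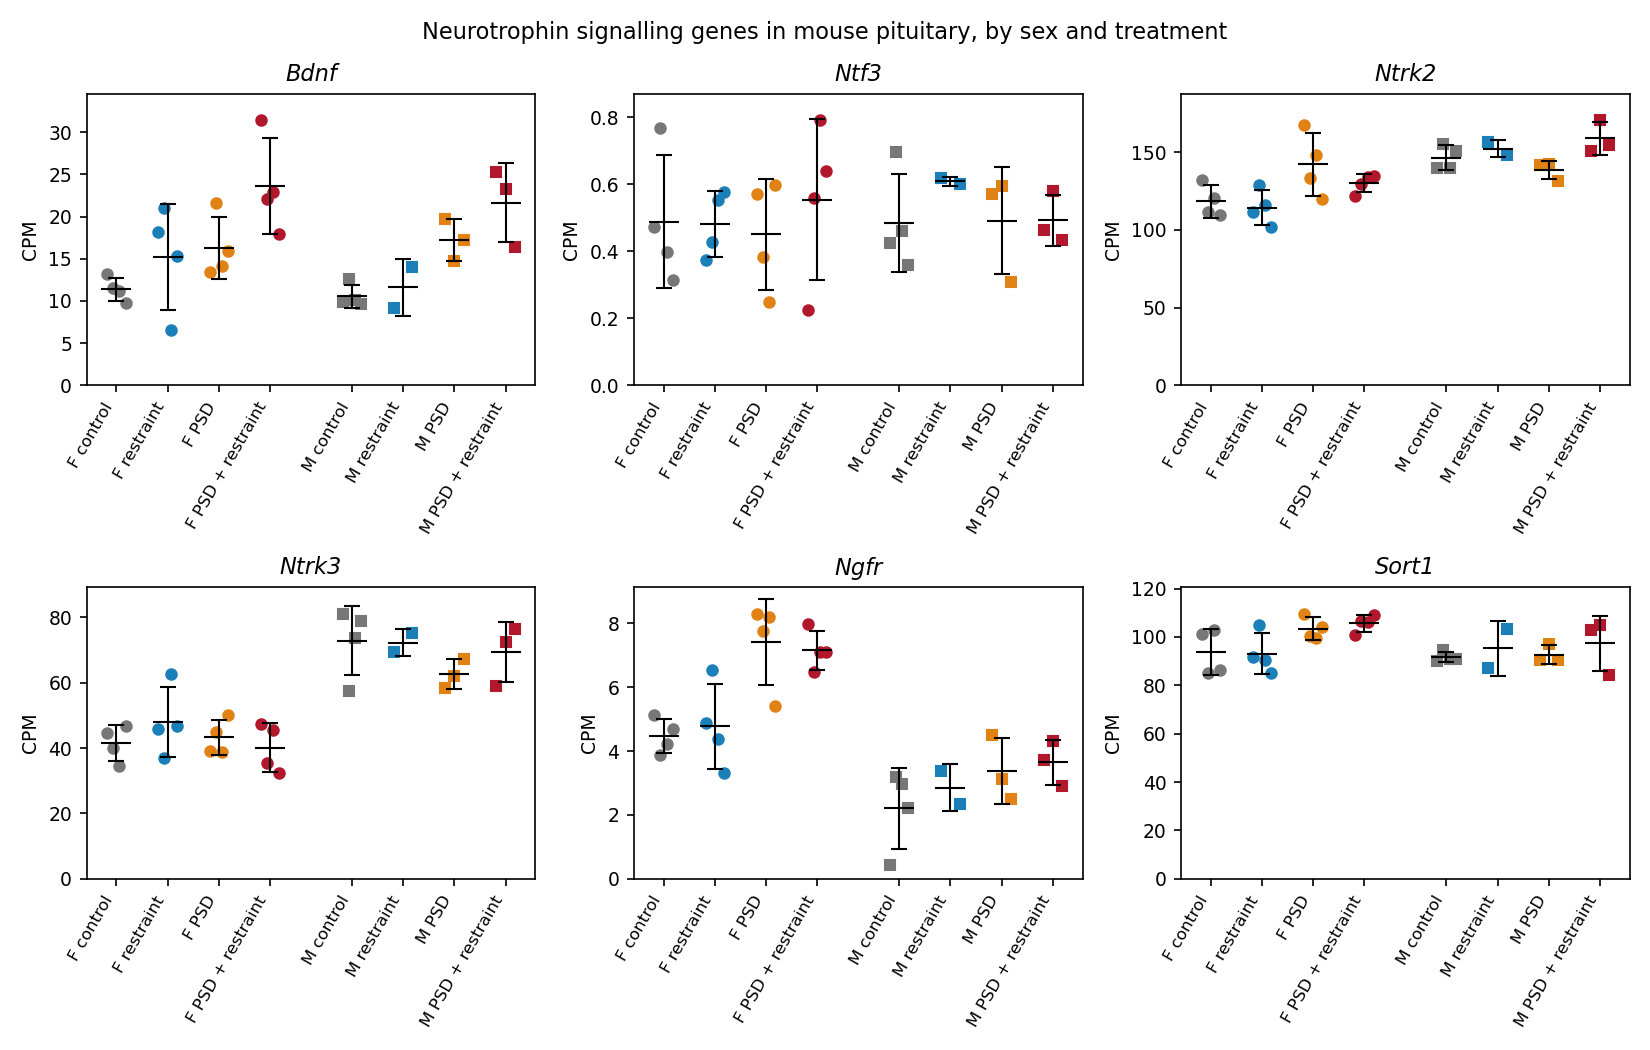
CPM of the 6 members in each mouse of the 8 groups (F, female circles; M, male squares), each axis starting at 0; horizontal bars are group means and whiskers 1 SD. The 7 PSD + restraint mice lie above the 8 controls of their sex for Bdnf, female Ngfr is above most male values, and Ntrk3 is lower in females.

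Adding one treatment to the other did not give a called difference for any member by edgeR. DESeq2 called Bdnf for PSD + restraint against restraint in males (adjusted p = 0.00678) and in all mice (adjusted p = 0.0329). It called 0.757% and 0.382% of all genes there. For PSD + restraint against restraint, Bdnf differed by 0.62 ± 0.26 in females (edgeR, adjusted p = 0.307), 0.90 ± 0.21 in males (adjusted p = 0.238) and 0.71 ± 0.18 in all mice (adjusted p = 0.149), where 0.0332%, 0.00547% and 0.0951% of genes were called. With the lobe score as a covariate the female value was 0.22 (adjusted p = 0.937). The 3 PSD + restraint males lay above both restraint males. For PSD + restraint against PSD, the values were 0.54 ± 0.26, 0.34 ± 0.18 and 0.45 ± 0.18 (adjusted p = 0.507, 0.549 and 0.206 by edgeR), where 0.941%, 0.285% and 2.01% of genes were called. The interaction, which asks whether the effects of both treatments together depart from their sum on the log2 scale, was 0.10 ± 0.25 for Bdnf in all mice (95% interval -0.39 to 0.59, edgeR adjusted p = 0.9999). It was 0.10 ± 0.37 in females and 0.19 ± 0.27 in males. No member and no gene was called for the interaction, so that 0% of genes were called in females, in males and in all mice by edgeR, where 766, 702 and 743 genes had an unadjusted p below 0.05, and DESeq2 called none.

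Intermediate lobe markers were also higher after PSD + restraint. The summed CPM of the 3 intermediate lobe markers was 1193 to 1819 in female controls and 1765 to 2866 in female PSD + restraint mice, and in males 377 to 1726 in controls and 1789 to 3309 after PSD + restraint. The 4 neural lobe markers summed to 33.6 to 48.95 CPM in female controls and 53.3 to 64.6 CPM after PSD + restraint, while in males PSD + restraint mice (35.3 to 77.3 CPM) overlapped controls (3.69 to 50.6 CPM). The 3 PSD males, with more Bdnf than every male control, had intermediate lobe sums of 1737 to 2449 CPM, also above every male control. Their neural lobe sums were 37.4 to 42.1 CPM and their scores -0.36, -0.11 and -0.08. Male PSD + restraint mouse 3 had 16.4 CPM of Bdnf at a score of -0.43. The part of lobe content in the Bdnf change was not tested beyond the covariate. Scores were -0.55 to 0.18 in female controls and 0.26 to 0.995 in female PSD + restraint mice, without overlap. In females the covariate therefore cannot tell lobe content apart from this treatment. With the score of the 7 markers as a covariate, the Bdnf change after PSD + restraint was 0.88 in all mice (edgeR, adjusted p = 0.00443) and 0.96 in males (adjusted p = 0.0230), both still called, and 0.54 in females (adjusted p = 0.486), not called. Without male control mouse 1 and without the score it was 1.03 in males (edgeR, adjusted p = 0.0124). That mouse, at a score of -3.92, was in the male and all-mice fits with the score. The score with that mouse left out was not tested. The female call was also lost on leaving out any 1 of 10 of the 16 females, with adjusted p from 0.00355 to 0.145 over the 16 and fold changes from 0.89 to 1.15.

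**Figure D3:**
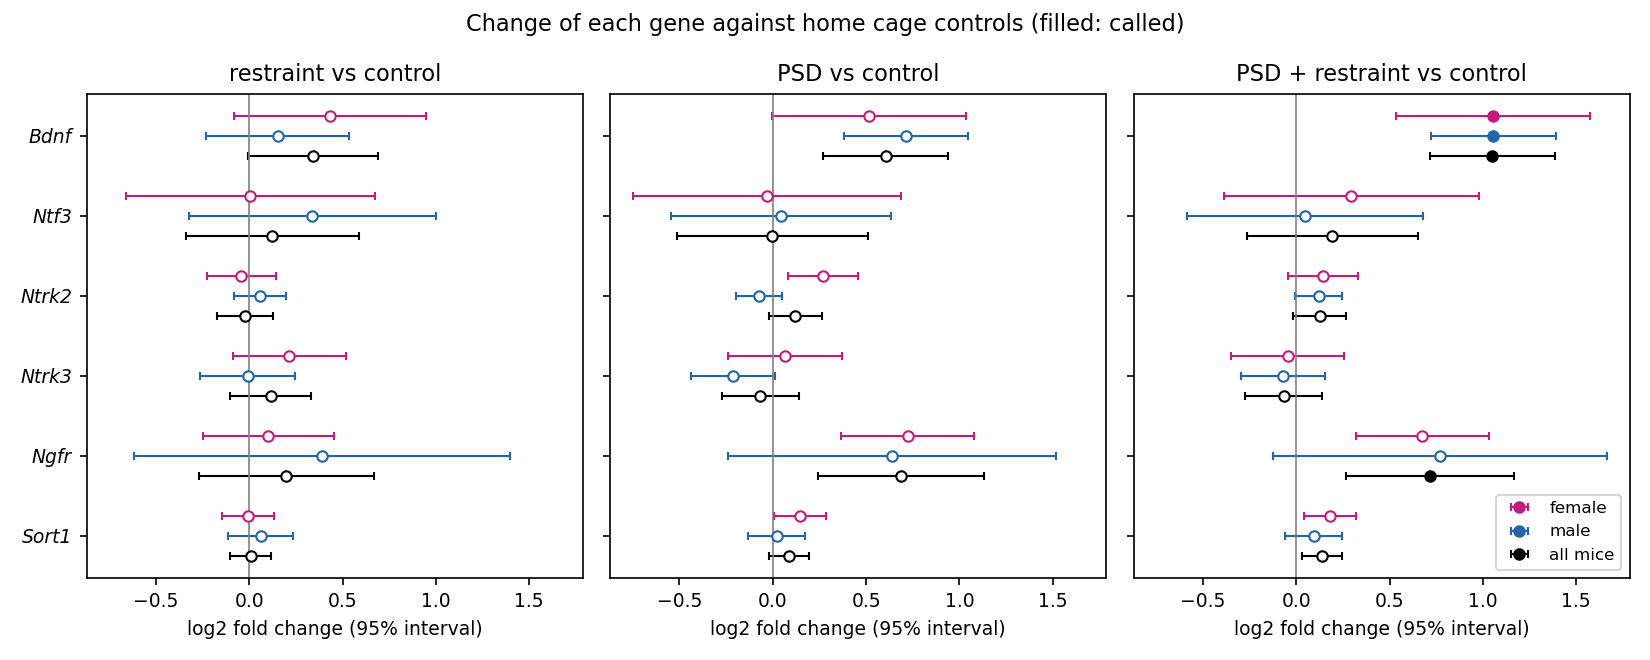
Log2 fold change of the 6 members against home cage controls with approximate 95% intervals (normal distribution), in females, males and all mice. Filled points were called. Bdnf is filled in all 3 fits for PSD + restraint, at 1.05, and Ngfr in the all-mice fit at 0.71.

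Ntf3, the ligand of TrkC, had only 3 to 34 counts per mouse. Its group means lay between 0.45 and 0.61 CPM, it was not called in any of the 23 comparisons, and its intervals were wide, from -0.27 to 0.65 for PSD + restraint in all mice. Changes of any size within that interval are compatible with these values, and a limit of detection was not computed.

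Ngfr encodes p75, the receptor for uncleaved and mature neurotrophins alike. In females, controls had 5.13, 3.89, 4.22 and 4.68 CPM and restraint mice 4.87, 6.53, 4.38 and 3.32 CPM. The PSD females had 8.31, 7.75, 8.21 and 5.42 CPM and the PSD + restraint females 7.98, 6.49, 7.10 and 7.11 CPM. All 8 females with PSD lay above the 4 control females, a separation that was not counted over all genes. The difference missed the threshold after adjustment, at 0.72 ± 0.18 for PSD (edgeR, adjusted p = 0.109) and 0.68 ± 0.18 for PSD + restraint (adjusted p = 0.0558). With the lobe score as a covariate these values were 0.41 (edgeR, adjusted p = 0.486) and 0.31 (adjusted p = 0.5304). The scores of female controls and female PSD + restraint mice did not overlap, so the second value cannot tell lobe content apart from treatment. In males, controls had 0.42 (mouse 1), 3.20, 2.98 and 2.21 CPM, restraint mice 3.37 and 2.33, PSD mice 4.50, 3.14 and 2.49, and PSD + restraint mice 3.74, 4.31 and 2.91 CPM. The male groups overlapped, and the low value belongs to the gland with the low lobe score, where it rested on 20 counts.

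With all mice fitted together, Ngfr rose by 0.71 ± 0.23 after PSD + restraint (edgeR, adjusted p = 0.0426, called), and the difference after PSD alone was 0.69 ± 0.23 (adjusted p = 0.128), or 0.53 without male control mouse 1 (adjusted p = 0.0786). Restraint alone gave 0.20 ± 0.24 (adjusted p = 0.888), or 0.05 without that mouse, and PSD + restraint against PSD 0.03 ± 0.23 (adjusted p = 0.987). The call held without male control mouse 1, at 0.56 (adjusted p = 0.0172), but was lost on leaving out any 1 of 10 other mice (adjusted p 0.0172 to 0.0932 over the 28). With the lobe score as a covariate, the change was 0.18 (adjusted p = 0.551) for PSD + restraint and 0.36 (adjusted p = 0.222) for PSD. In males the value for PSD + restraint was 0.77 with mouse 1 and 0.41 without it, neither called. The genes whose log2 CPM was most like that of Ngfr over the 28 mice were Igfbp4 (an IGF-binding protein, Pearson r = 0.91), Neu2 (a sialidase, r = 0.90) and Oxt (the oxytocin precursor of neural lobe nerve endings, r = 0.90). By Spearman's rho the values of these genes were 0.82, 0.84 and 0.83, and with group means subtracted r was 0.86, 0.73 and 0.90. By each of these measures other genes ranked as most alike, with 0 of these shared. All these values include male control mouse 1, and values without it were not computed. Schwann cells also carry p75, and their 6 markers were summed as well. The sum was highest in female PSD mouse 1 (199 CPM), which also had the most Ngfr (8.31 CPM). In male control mouse 1, with the least Ngfr, the sum was 63.1 CPM, against 17.0 to 58.7 CPM in the other 26 mice. The part of Schwann cells in the Ngfr values was not tested.

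**Figure D4:**
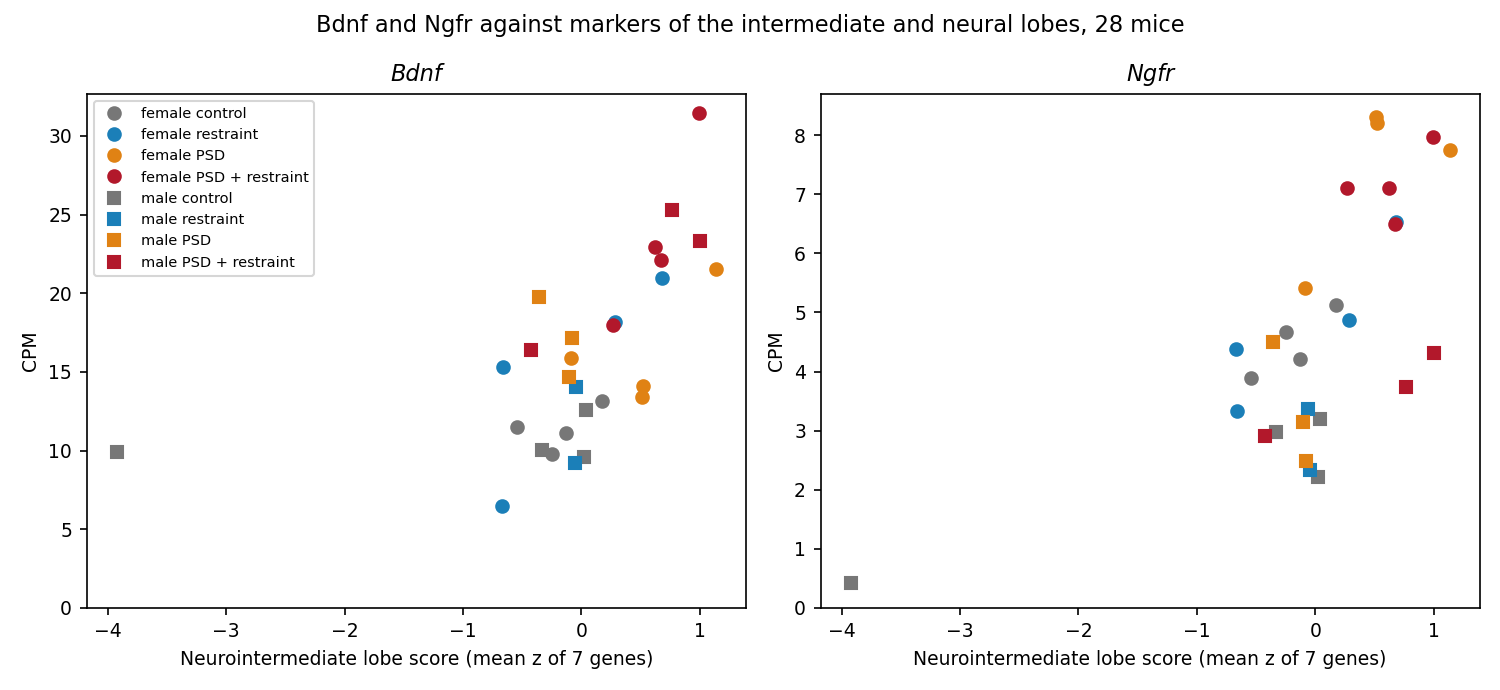
CPM of Bdnf and Ngfr against the neurointermediate lobe score of each of the 28 mice (circles females, squares males, colour by treatment). Male control mouse 1 lies alone at -3.92 with the lowest Ngfr (0.42 CPM) and a Bdnf value (9.89 CPM) among the other controls.

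Neither receptor kinase was called for any treatment comparison. Ntrk2, which encodes TrkB, had group means of 114 to 159 CPM. It was 132, 111, 121 and 110 CPM in control females and 167, 134, 148 and 120 CPM in PSD females, overlapping groups with a difference of 0.27 ± 0.10 (edgeR, adjusted p = 0.151). It was 0.17 without female PSD mouse 1, 0.35 and called without female PSD mouse 4 (adjusted p = 0.0470), and 0.19 with the lobe score as a covariate (adjusted p = 0.572). Mouse 1, with the highest Ntrk2 of these females, also had the highest summed markers of astrocytes (331 CPM) and of forebrain and olfactory neurons (166 CPM) among all mice, and their part in the Ntrk2 value was not tested. In males the corresponding difference was -0.08 ± 0.06. The response to PSD differed between the sexes by 0.35 ± 0.12 (adjusted p = 0.357), which was not called. Across the genes, none was called for a sex difference of the restraint, PSD or PSD + restraint response by edgeR (0% each, with 804, 2038 and 1363 genes at an unadjusted p below 0.05), and DESeq2 called 0, 25 and 10, no member among them. Ntrk3, which encodes TrkC, changed by -0.07 ± 0.11 after PSD + restraint in all mice (adjusted p = 0.753, 95% interval -0.27 to 0.14). Sort1, which encodes the co-receptor of p75 for precursors, changed by 0.14 ± 0.05 (adjusted p = 0.103) and never by more than 0.18 in a comparison with controls.

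For 2 receptors the sexes differed. Ntrk3 was 57.6 to 81.2 CPM in the 12 males and 32.4 to 62.6 CPM in the 16 females, of which 15 lay below every male. Female restraint mouse 3, the mouse with the least Bdnf, was the exception. The difference was -0.69 ± 0.08 (edgeR, adjusted p = 8.19e-08), or 0.62-fold in females, and in controls alone, with values of 44.7, 40.1, 34.6 and 46.9 CPM in females and 81.2, 57.6, 73.8 and 79.0 CPM in males, it was -0.81 ± 0.14 (adjusted p = 0.000372). Ngfr went the other way. It was 3.32 to 8.31 CPM in females and 0.42 to 4.50 CPM in males, and 12 of the 16 females lay above every male. The female level was 1.99-fold the male one (log2 0.99 ± 0.17, adjusted p = 5.40e-05), and it was 0.89 without male control mouse 1 (adjusted p = 8.84e-07). In controls alone the difference was 1.05 ± 0.33 (adjusted p = 0.0327), or 0.69 without that mouse (adjusted p = 0.0482), and fitted on the control mice alone it was not called (adjusted p = 0.147).

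Ntrk2 was lower in females by a smaller step, -0.24 ± 0.05 (edgeR, adjusted p = 0.00100), which is under the fold threshold. In controls alone it was -0.31 ± 0.08 (adjusted p = 0.0139), and without male control mouse 1 it was -0.33 and passed both thresholds (adjusted p = 0.0203). Bdnf, Ntf3 and Sort1 differed by 0.12, -0.05 and 0.07 between the sexes, with adjusted p of 0.509, 0.838 and 0.161. In all, 2 of 6 members were called for sex, where 14.9% of genes were called in all mice, and the same 2 in controls, where 10.7% were. Among the relatives, Sorcs1, a sortilin-family receptor, was 0.47-fold in females (log2 -1.10 ± 0.11, adjusted p = 1.62e-08). It ranged over 4.71 to 7.54 CPM in control, 5.05 to 7.2 in restraint, 9.12 to 12.5 in PSD and 7.26 to 10.3 in PSD + restraint females, and over 13.9 to 22.4 CPM in the 12 males. The female PSD + restraint difference of 0.60 ± 0.16 just missed the threshold (adjusted p = 0.0534) and was called by DESeq2. Sorcs2 was higher in control females (0.42 ± 0.12, adjusted p = 0.0195). Sorl1, Sorcs3 and Ntf5 were not called for sex.

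The other genes of the pathway were counted by list after PSD + restraint in all mice, where 5.46% of all genes were called. Of the 12 ligands and receptors tested, 2 were called, Bdnf and Ngfr, both higher, with a list median of 0.20 against 0.00 for all genes. Sorcs1, Sorcs2, Sorcs3, Sorl1 and Ntf5 were not called, with changes of 0.22, -0.21, 0.50, -0.03 and 0.38. Of 43 Trk adaptors and effectors and 24 partners of p75, 0 were called by edgeR and 0 by DESeq2, with 9 and 6 genes at an unadjusted p below 0.05. Over all genes, 25.5% had an unadjusted p below 0.05 by edgeR, and DESeq2 called 4.74%. Without male control mouse 1, edgeR called 1 of the 43 adaptors, Crkl. Crkl, an adaptor of the MAP kinase pathway, rose by 0.40 in males (adjusted p = 0.0166) and by 0.47 without that mouse, the sole call of both lists after PSD + restraint in a single sex. After PSD alone, 0 of the 139 genes tested on the 6 lists were called by edgeR in all mice (29 at an unadjusted p below 0.05), and DESeq2 called 3 (Bdnf, Pcsk2 and Pcsk6, named after their values were seen). Over all genes, edgeR called 0.671% there, 17.6% had an unadjusted p below 0.05, and DESeq2 called 1.36%.

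Of 17 genes of precursor processing and release, 4 rose after PSD + restraint in all mice, where 5.46% of all genes were called. Of these 4 genes, 3 are described. Pcsk1 and Pcsk2 encode prohormone convertases and rose by 0.57 ± 0.09 (edgeR, adjusted p = 0.000190) and 0.996 ± 0.247 (adjusted p = 0.00926). Pcsk2 is itself one of the 7 lobe markers. Cpe, a carboxypeptidase that trims prohormones, rose by 0.35 ± 0.07 (adjusted p = 0.00160). Without male control mouse 1, which had the least Pcsk2, the Pcsk2 rise was 0.86 (adjusted p = 0.00784), and all 4 genes were still called. With the lobe score as a covariate Pcsk1 was still called (0.60), and Cpe fell below the fold threshold (0.27, edgeR, adjusted p = 0.0271). Pcsk2 was not called (0.38, adjusted p = 0.0625). As part of the score it was adjusted in part for itself, so its smaller value there is not informative.

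Of 23 regulators of Bdnf transcription, 3 rose after PSD + restraint in all mice, where 5.46% of all genes were called. Crem, a cAMP-responsive factor whose products include the repressor ICER, rose by 1.33 ± 0.16 (edgeR, adjusted p = 3.93e-06). Its mean went from 47.6 ± 7.95 CPM in control females (SD, n = 4) to 109 ± 20.9 CPM after PSD + restraint, and from 45.9 ± 12.9 (n = 4) to 128 ± 12.9 CPM (n = 3) in males. Npas4, an activity-induced factor that acts on Bdnf in neurons, rose by 2.14 ± 0.27 (adjusted p = 5.50e-06), and Hdac5, a class IIa histone deacetylase, by 0.45 ± 0.09 (adjusted p = 0.00157). After restraint alone 1.14% of all genes were called in all mice. Crem and Npas4 rose there by 1.01 ± 0.17 (edgeR, adjusted p = 0.000734) and 1.42 ± 0.28 (adjusted p = 0.00371), and Bdnf was not called. Among 20 other growth factor and receptor genes of nerve cells, 1 was called after PSD + restraint, a share near the 5.46% of all genes. This was Gdnf (glial cell line-derived neurotrophic factor). It rose by 2.60 ± 0.36 (adjusted p = 2.10e-05), and by 1.43 ± 0.37 after restraint alone (adjusted p = 0.0459), from 1.66 ± 0.51 CPM in control females to 7.31 ± 3.41 after PSD + restraint and from 1.11 ± 0.67 to 9.81 ± 4.64 in males. In male control mouse 1 it had 6 counts. Without that mouse the Gdnf rises were 2.40 (adjusted p = 8.98e-06) and 1.24 (adjusted p = 0.0370), and with the lobe score as a covariate 1.68 (adjusted p = 0.000220) and 1.09 (adjusted p = 0.0141). Crem, Npas4 and Hdac5 also stayed called after PSD + restraint in both of these fits.

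**Figure D5:**
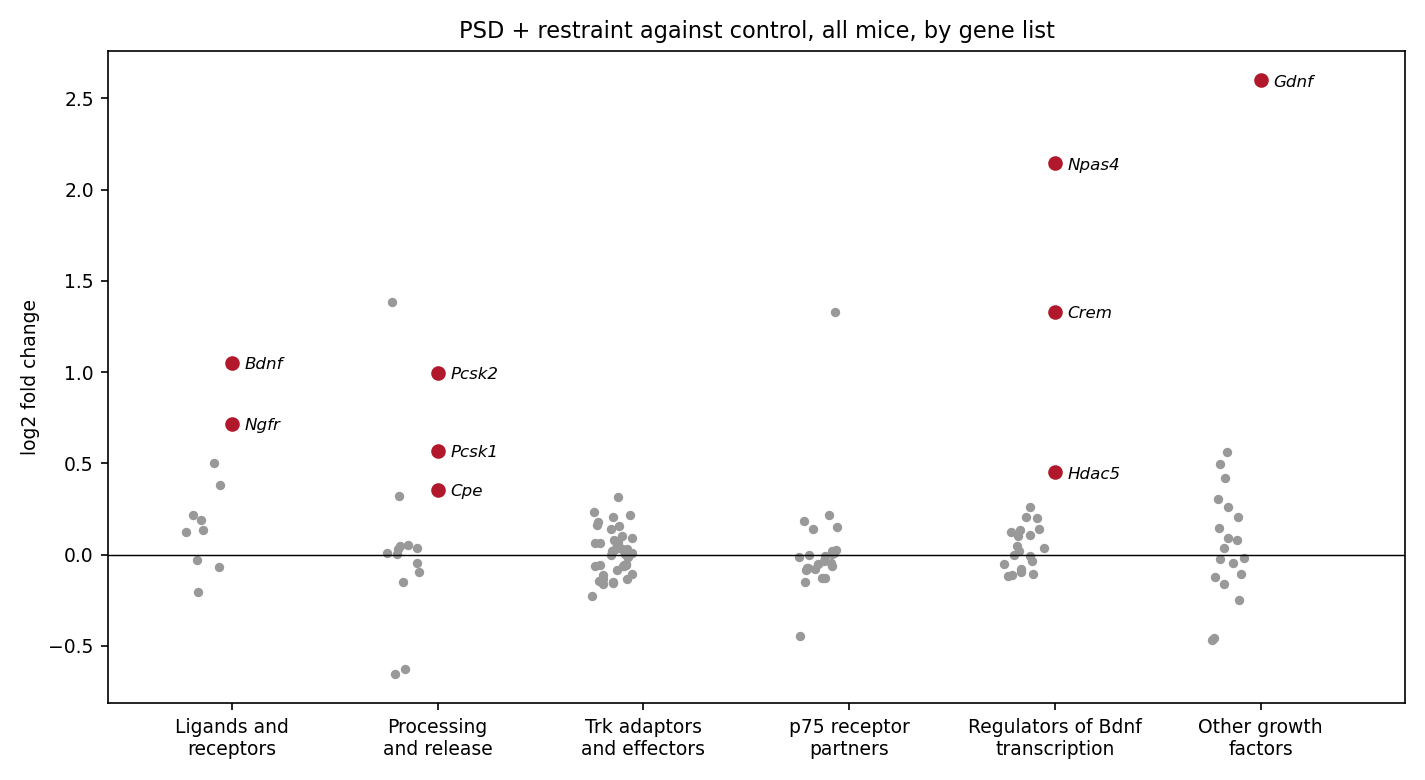
Log2 fold change of the tested genes of the 6 lists after PSD + restraint against control, all mice. Red points with names were called and grey points were not; the 9 called genes drawn are all higher, and the Trk adaptor and p75 partner lists hold none.

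For Bdnf, the genes most alike over the 28 mice were Fzd3 (a Wnt receptor, Pearson r = 0.84), Slc38a1 (an amino acid transporter, r = 0.81) and Spry1 (an inhibitor of receptor kinase signalling, r = 0.80), and with group means subtracted the values were 0.84, 0.73 and 0.73. Ntrk2 ran with Ptn (pleiotrophin, r = 0.90), Plce1 (a phospholipase C) and Col18a1 (a basement membrane collagen), both at r = 0.88. Ntrk3 ran with Dapl1, Acot12 and Sdf4 (r = 0.90, 0.89 and 0.89), and their within-group values fell to 0.61, 0.56 and 0.56. Sort1 ran with Lin7a (r = 0.87), and the highest value for Ntf3 was r = 0.62 (AK045670). All these values share the same 28 libraries.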

How the data were processed

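Pituitary RNA of 28 mice was sequenced from stranded libraries. Reads were mapped by the authors with MapSplice (mm10) and assigned to UCSC gene models by HTSeq 0.9.1 in intersection-nonempty mode. The deposited count table holds these raw counts. The strand setting of the counting is not given in the sources used here. The deposited normalized table is a signal (counts scaled by a size factor for each library) and served only as an alternative. All 37 pairs of libraries within groups differed by more than counting noise (lowest chi-square per degree of freedom 7.48), so no pair was the same library. Separate libraries made from the same mouse could not be detected in this way.

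Counts were tested with edgeR 4.0.16 in R 4.3.3 (quasi-likelihood test, TMM, filterByExpr) in each sex with PSD, restraint and their interaction, in all mice with sex added, and with 1 mean per sex and treatment for sex differences. Benjamini-Hochberg adjustment ran over all genes tested (18059 in females, 18271 in males and 18936 in all mice). Standard errors were the size of the log2 fold change over the square root of the F statistic. The 95% intervals combined these errors with the normal distribution, and so are narrower than intervals matched to the F test. TMM factors from all genes entered CPM, and 2 was the prior count for log2 CPM. TPM used the mean length of the GENCODE M21 transcripts of each gene. Overlapping annotated genes of the members were not in the count table. The scripts were tested on simulated data. Mice with the same number are different animals, and numbers were not used as pairs. P-values measure the spread between these mice, treated as independent. The mice were housed by sex in shared cages, and cage mates shared a tank during sleep deprivation. Which mice shared a cage or tank is not given in the sources used here. Effects of cage or tank therefore cannot be told apart from those of treatment.

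The text names the 6 members in every comparison, at most 4 called genes per list and comparison by smallest p, the direct paralogs and ligands of members, and the 3 genes most like each member by Pearson r among genes with a mean CPM of at least 1. A few list genes that the rule would name are not reported here. The members and lists were chosen with earlier results of these data known. Alternatives were DESeq2 1.42.0, its size factors in edgeR, no filter, at least 10 counts in every mouse, a mean TPM of at least 1, only the groups compared, the replicate block, the lobe score as a covariate, the robust option, no fold threshold and leaving out each mouse. For the named genes of the lists, fits without male control mouse 1 and with the lobe score were chosen after seeing the data. Fits of males and of all mice with the lobe score kept male control mouse 1.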

Additional observations from a re-analysis of the deposited data

Results flagged for a closer look

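In 2 of the 30 member and group pairs of 4 mice, 1 mouse stood apart from the other 3 of its group, and chance alone flags about 1 in 20 such groups. Both flags fell on male control mouse 2. Its Bdnf value was 12.6 CPM where the next mouse had 10.1 and the lowest 9.58 CPM, a gap of 0.844 of the range. Its Sort1 value was 94.7 CPM where the next had 90.9 and the lowest 90.1 CPM, a gap of 0.835 of the range. Without any one male, Bdnf after PSD + restraint stayed called in males.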

How the results depend on the processing

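Bdnf after PSD + restraint stayed called in all mice under all 9 alternatives tabulated for it (log2 fold change 0.70 to 1.06, adjusted p 1.02e-07 to 0.00443). Of the counts of members called, 210 of 226 recomputed with settings other than leaving out a mouse stayed within 1.5 times the value reported. The exceptions were as follows. With DESeq2, the count became 1 for female PSD (Ngfr), male PSD (Bdnf), all mice PSD (Bdnf), and PSD + restraint against restraint in males and in all mice (Bdnf), in place of 0 each, and 2 for female PSD + restraint. In that order, DESeq2 called 2.35%, 0.483%, 1.36%, 0.757%, 0.382% and 4.04% of all genes. With only the groups compared, the count was 2 for female PSD + restraint, 1 for PSD in all mice, 1 for PSD + restraint in all mice and 1 for control females against control males. With the lobe score as a covariate it was 0 for female PSD + restraint and 1 for all mice, with the robust option 0 for female PSD + restraint, and with no filter on low counts 1 for PSD + restraint in all mice. With the replicate block, which uses numbers that pair no animals, it was 0 for male PSD + restraint (Bdnf adjusted p = 0.0632) and 1 for all mice. Same-numbered mice of different groups correlated at -0.36 to 0.36 in females and -0.24 to 0.13 in males, medians -0.03 and -0.06. Leaving out 1 mouse gave 1 to 2 members for PSD + restraint in all mice, 0 to 2 in females, 0 to 2 for female PSD, 0 to 1 for PSD in all mice and for PSD + restraint against restraint in all mice, and 1 to 3 for control females against control males. With the lobe score, 3.71% of all genes were called for PSD + restraint in all mice. For the other counts here made without DESeq2, the share of all genes is not given, so they cannot be set against it. Bdnf after restraint in males ranged from -0.19 to 0.42 and Ngfr after restraint in females from -0.0857 to 0.24 as 1 mouse was left out, and so each turned sign once. Which genes were most alike to a member changed with Spearman's rho or with group means subtracted in 10 of 12 cases, with 0 or 1 of the 3 genes shared for each. The causes were not tested. Groups of 2 to 4 mice and 3 to 34 counts for Ntf3 limit what could be seen.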
